A study of Mus musculus with 6 samples.

Results

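Ptgds, Ptgs1, Ptgs2, Ptges and Ptgis are 5 genes of prostaglandin synthesis, and all 5 were found among the 52636 genes of the deposited table. They were chosen by name, with Ptgds selected on its level in these data, since it is among the leading genes of the RPE cells. The order of levels across cell types is therefore given as a description, without a test. The genotype comparison was not used to choose the genes and was tested.

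Single cells were profiled from cultured RPE and choroid of male C57BL/6J mice aged 12 to 16 months, with 3 samples per genotype, Dram2 wt/wt and Dram2 ko/ko. The RPE is the pigmented epithelium beneath the photoreceptors, and the choroid is the vascular layer behind it. The ko allele lacks exon 4 of Dram2, was made with CRISPR/Cas9 in zygotes and is carried by every cell of the animal, and the tissue of both genotypes was dissociated with papain and grown in an RPE growth medium. Dram2 ko/ko replicate 3 was the only sample of batch 2, and the other 5 samples were batch 1. The labels do not state whether a sample came from 1 animal or from several, so p-values measure the spread between these samples only.

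The table held 25428 cells, 2140 to 6648 per sample, with 96808998 to 122746184 unique molecular identifiers (UMIs, each standing for 1 captured RNA molecule) per sample. Dram2 ranged from 33.4 to 39.6 CPM (UMIs of the gene per 1000000 UMIs) in the wt/wt samples and from 28.3 to 30.7 CPM in the ko/ko samples. These libraries read the 3′ end of a transcript, so Dram2 UMIs do not report on exon 4 and do not check the genotype labels. Cells of 8 types were named by the authors, and 1492 of them were RPE cells, 56 to 575 per sample. In RPE cells the 10 listed RPE markers summed to 296 to 1105 CPM per sample, against 0 to 22.7 CPM in the other types. Most of that sum was Krt18, while the visual cycle enzyme Rpe65 was at 0.174 to 1.75 CPM and the pigment enzyme Tyrp1 at 0.217 to 0.994 CPM. Cells named Pericyte carried more Schwann cell markers, 740 to 2141 CPM, than pericyte markers, 196 to 269 CPM, so values under that name belong to the deposited cluster and not to a checked cell type. No cell identifier occurred in more than 1 sample, but the identifiers are running numbers and not barcodes, so shared barcodes could not be counted.

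Prostaglandins are short-lived lipid signals made from arachidonic acid, which phospholipases free from membranes. The cyclooxygenases turn it into a common intermediate, prostaglandin H2. Ptgs1 encodes COX-1, the form present in many resting cells, and Ptgs2 encodes COX-2, an immediate early gene that growth factors and cytokines induce. Terminal synthases then decide the product. Ptgds makes prostaglandin D2 and is also a secreted lipocalin that binds retinoids, long known from the RPE and the matrix around the photoreceptors. Ptges is the inducible microsomal synthase of prostaglandin E2, and Ptgis, a cytochrome P450, makes prostacyclin.

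On GRCm38, 4 of the 5 genes lie on chromosome 2. Ptgds spans chr2:25466709-25470046 on the minus strand, and Ptges spans chr2:30889471-30929863 on the same strand. Ptgs1 lies at chr2:36230426-36252272 on the plus strand and Ptgis at chr2:167191805-167240604 on the minus strand. Ptgs2 spans chr1:150100031-150108227 on the plus strand. Ptges overlaps Gm13400 on its own strand, but that gene held 93 UMIs against 63410 of Ptges. In the last 400 bases of the transcripts, 13% of the 31-base words of Ptgis also occurred in 1 other gene, 1110018N20Rik, which held 11 UMIs against 39348 of Ptgis. The share was 0% for Ptgds, Ptgs1 and Ptgs2 and 0.486% for Ptges, so the 3′ counts of these genes are hardly exposed to copies elsewhere.

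The promoters of 2 genes are shown because these genes had the opposite order of levels between RPE cells and fibroblasts. Each runs 5′ to 3′ on the strand of its gene, from 250 bases before the RefSeq start site to 50 bases after it (RefSeq on GRCm38.p6), and capitals mark the motifs found, on either strand. The Ptgds stretch is chr2:25469700-25469999 on the minus strand, and the Ptgs2 stretch is chr1:150099781-150100080 on the plus strand.
Ptgds: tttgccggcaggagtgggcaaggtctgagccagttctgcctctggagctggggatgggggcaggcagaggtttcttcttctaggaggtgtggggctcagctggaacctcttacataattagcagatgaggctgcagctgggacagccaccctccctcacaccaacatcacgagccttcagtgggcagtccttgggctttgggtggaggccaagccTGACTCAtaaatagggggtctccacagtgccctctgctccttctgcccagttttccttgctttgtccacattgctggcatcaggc
Ptgs2: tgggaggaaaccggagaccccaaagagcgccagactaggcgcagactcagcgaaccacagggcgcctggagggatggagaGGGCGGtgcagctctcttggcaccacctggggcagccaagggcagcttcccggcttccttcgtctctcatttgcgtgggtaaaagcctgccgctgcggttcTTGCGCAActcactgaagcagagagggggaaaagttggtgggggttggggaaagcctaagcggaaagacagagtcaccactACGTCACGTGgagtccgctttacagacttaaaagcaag
In Ptgds the capitals mark the AP-1 motif TGACTCA, whose first base is 35 bases before the start site, and 5.2% of 32851 mouse promoters of this length hold it. In Ptgs2 they mark, from left to right, a GC box (GGGCGG, in 35.7% of promoters), the palindromic C/EBP motif TTGCGCAA (in 0.183%), and a CRE core (TGACGT, read on the other strand, in 7.51%) that overlaps an E-box (CACGTG, in 7.15%). Neither stretch held TAATCC, the core letters of the OTX motif, nor CATGTG or TATAAA. The motifs were chosen with these sequences in view, and a match is a description of letters, not a bound site.

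Ptgds was found almost wholly in RPE cells. Its RPE level was 715, 260 and 493 CPM in wt/wt replicates 1, 2 and 3, and 676, 883 and 151 CPM in ko/ko replicates 1, 2 and 3. The mean was 530 ± 282 CPM (SD, n = 6), and the values of the genotypes overlapped. RPE cells held 13019 of all 13438 Ptgds UMIs, or 96.9%, with 93.7% in the sample with the lowest share and 98.7% in the highest.

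In every other type Ptgds was low. The next type in order was Pericyte, at 3.9 ± 6.15 CPM (SD, n = 6), and its highest value, 15.9 CPM in ko/ko replicate 1, came from 7 UMIs. Fibroblast, Fibroblast proliferating and Fibroblast 2 cells averaged 0.649, 0.638 and 0.572 CPM, with ranges that overlapped. The first 2 means rested on wt/wt replicate 2, at 1.97 and 2.01 CPM, and were 0.385 and 0.365 CPM without it. The ranges of RPE and Pericyte did not overlap, and no later pair of neighbours in the order of levels was separated beyond its spread. Outside RPE, 419 Ptgds UMIs were spread over 23936 cells, and 5 of these cells held 5 or more, with 13 as the highest count.

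The level of Ptgds in a sample's RPE cells went with the number of those cells and with their marker levels. Both samples with the most RPE cells, wt/wt replicate 2 (539 cells) and ko/ko replicate 3 (575 cells), had the lowest levels, 260 and 151 CPM. These samples also had the lowest sums of RPE markers, 506 and 296 CPM against 871 to 1105 CPM in the other 4, and the highest sums of the proliferation genes Mki67 and Top2a, 175 and 285 CPM against 25.1 to 61.5 CPM. Melanocyte markers in their RPE cells were lowest too, at 9.85 and 3.62 CPM against 16.9 to 21.8 CPM. Fibroblast markers in RPE cells were at 344 to 1166 CPM over the samples and did not order them the same way. Ptgds UMIs per sample ranged only from 1438 to 2987 in RPE cells while RPE cells ranged from 56 to 575. Fewer cells with the transcript and less transcript per cell cannot be told apart in a summed level, and the part of these measures in the spread was not tested. The sample ko/ko replicate 3 was also the only one of batch 2, so its batch cannot be told apart from these measures.

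**Figure D1:**
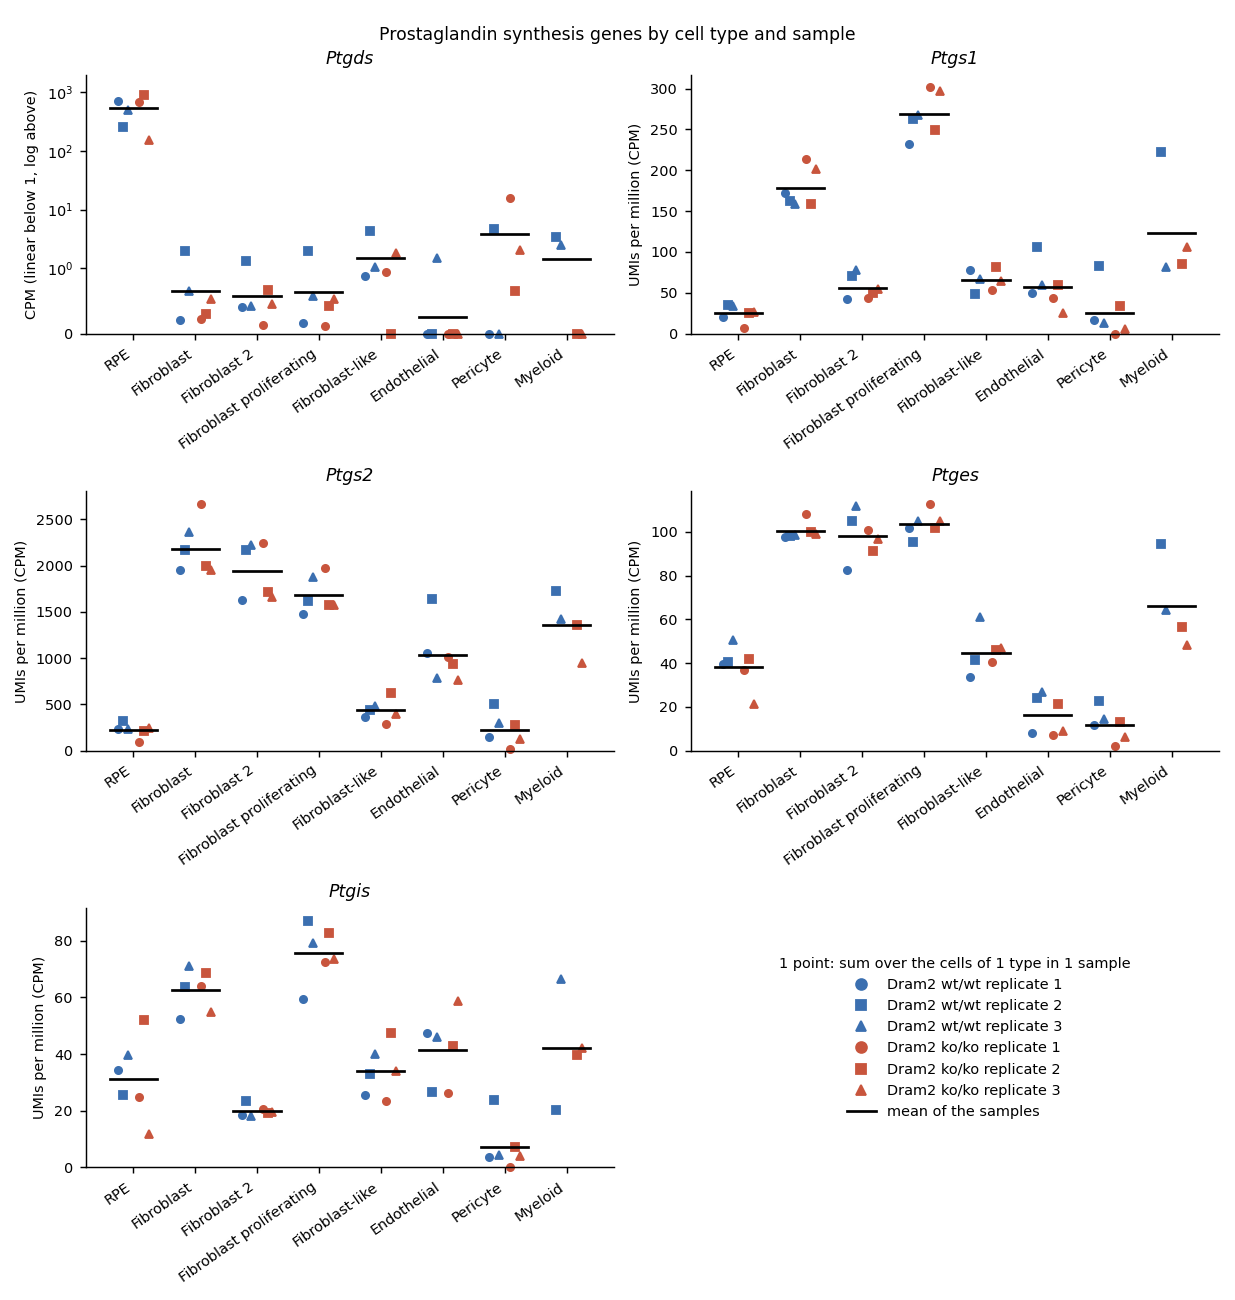
Level of each synthesis gene in each cell type, in CPM, 1 point per sample, with the 6 samples marked by colour and shape and the mean as a bar. The Ptgds axis is linear below 1 CPM and logarithmic above, and its RPE points sit between 151 and 883 CPM, above every point of the other types, while Ptgs2 is lowest in RPE and Pericyte cells.

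Single RPE cells differed widely in Ptgds. Every cell was thinned to 4000 UMIs so that deep and shallow cells could be compared, and 34 shallower RPE cells were left out. At this depth 537 of 1458 RPE cells (36.8%, exact 95% interval 34.3 to 39.4%) held a Ptgds UMI, and 60.3% did without thinning. In Fibroblast cells, taken as the background, 0.246% of 12578 cells did (0.168 to 0.35%). Median depths before thinning were 22906 UMIs in RPE cells and 26108 in Fibroblast cells. Intervals cover counting error only. The thinned share by sample was 59.3, 35 and 49.7% in the wt/wt samples and 60, 71 and 24.2% in the ko/ko samples, so it was again lowest in ko/ko replicate 3 and wt/wt replicate 2.

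At full depth, where deep cells weigh more, a small number of cells carried 50% of the transcript. In wt/wt replicates 1, 2 and 3, 5, 28 and 12 RPE cells held 50% of the sample's Ptgds UMIs, which is 8.93, 5.19 and 7.89% of its RPE cells. In ko/ko replicates 1, 2 and 3 the numbers were 6, 14 and 21 cells, or 8.82, 13.7 and 3.65%. The single highest cell held 106 to 223 UMIs, while the median RPE cell held 1 to 8. At full depth 12.7 to 48.2% of the RPE cells of a sample had no Ptgds UMI at all.

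**Figure D2:**
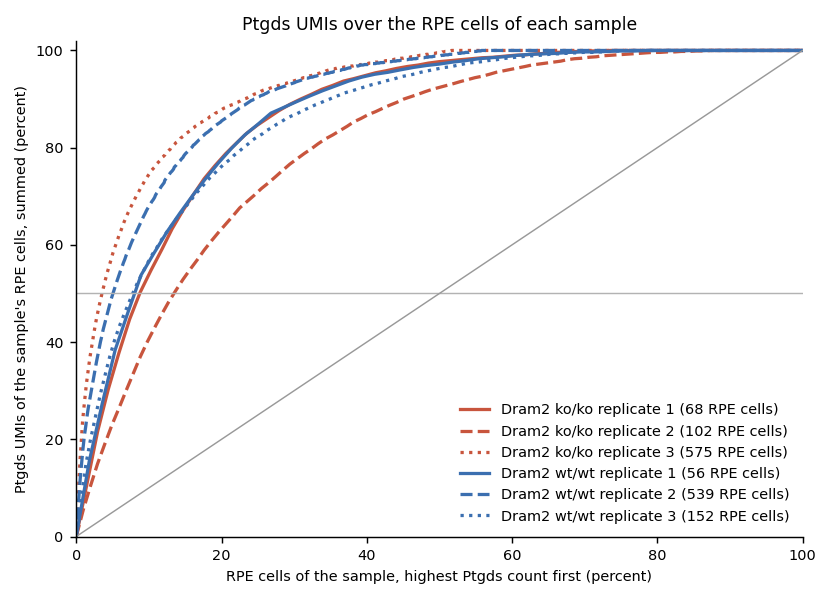
Cumulative share of Ptgds UMIs (percent) over the RPE cells of each sample, ranked from the highest count (percent of cells), 1 line per sample, with the diagonal as an even spread and a horizontal line at 50%. Ranking by count places the 6 lines on or above the diagonal by construction. The bend expected from low counts and uneven depth was not computed. In these samples 50% is reached within 3.65 to 13.7% of the cells.

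RPE cells were then placed in classes by their thinned Ptgds count, a division made after seeing the data and on a gene that helped to define the cluster, so it is a description. There were 921 cells at 0, 365 at 1 to 3 and 172 at 4 or more, with median depths of 23998, 22402 and 22288 UMIs. The 3 classes are ranges of 1 measure and not cell types, and 95 cells lay at 3 or 4. The classes also differed in their samples, since ko/ko replicate 3 made up 46% of the cells at 0 and 15.1% of those at 4 or more. Levels were therefore taken per sample and averaged with equal weight (mean ± SD, n = 6). Cells high in Ptgds were low in cell cycle genes. Mki67, a marker of cycling cells, was at 38.1 ± 27.9 CPM in cells at 0 and at 4.12 ± 6.7 CPM in cells at 4 or more. It was lower in 6 of 6 samples, but in ko/ko replicate 2 only at 1.28 against 1.92 CPM, from 1 UMI in each class. Top2a, the topoisomerase of dividing cells, was at 119 ± 77.5 and 17.9 ± 27.8 CPM, lower in 6 of 6 samples. Krt18, a keratin of simple epithelia, was at 596 ± 313 and 918 ± 194 CPM, but in ko/ko replicates 1 and 2 it was at 926 against 763 and at 899 against 928 CPM. Otx2, another listed RPE marker, was close at 88.9 ± 26 and 92.8 ± 17.3 CPM, higher in 3 of 6 samples and lower in 3. Rlbp1, also listed, was at 6.14 ± 3.69 and 8.96 ± 5.94 CPM, higher in 4 of 6 samples. Without ko/ko replicate 3 its means were 7.09 and 6.99 CPM. Mlana, a listed melanocyte marker, was at 4.33 ± 3.02 and 17.9 ± 11.4 CPM, higher in 6 of 6 samples. It rested on 3 to 19 UMIs a sample in cells at 0 and 5 to 30 in cells at 4 or more.

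Other prostaglandin genes also differed between the classes. Ptgs2 was at 295 ± 130 CPM in cells at 0 and 91.2 ± 62 CPM in cells at 4 or more, lower in 6 of 6 samples, from 544 against 27.9 CPM in wt/wt replicate 1 to 221 against 165 CPM in wt/wt replicate 3. Ptgis was at 26.6 ± 15 and 46.2 ± 11.3 CPM, higher in 5 of 6 samples, with wt/wt replicate 3 as the exception (36.1 and 30.9 CPM). Ptges was close in both classes at 41.5 ± 11.8 and 35.9 ± 7.8 CPM. Ptgs1 was at 27.3 ± 11.9 and 14.9 ± 6.1 CPM, lower in 6 of 6 samples. In ko/ko replicate 1, however, it was at 3.79 and 3.69 CPM, from 4 and 3 UMIs. In cells at 1 to 3, pooled over samples, Ptgs1 was at 34.1 CPM, against 28.7 CPM at 0 and 15 CPM at 4 or more. Of the enzymes that break prostaglandins down, Ptgr1 was at 404 ± 166 and 940 ± 167 CPM, higher in 6 of 6 samples. Hpgd was at 45.8 ± 65.5 and 89 ± 36.4 CPM, higher in 5 of 6, with the reverse in ko/ko replicate 1 (178 and 78.7 CPM). The exporter gene Abcc4 went the other way, at 74.1 ± 39.2 and 56.7 ± 21.4 CPM, lower in 5 of 6 samples. The matrix gene Mgp differed in the same direction as Ptgs2, at 413 ± 301 and 128 ± 99.2 CPM, lower in 5 of 6 samples, and its part in the Ptgs2 difference was not tested.

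Ptgs2 was highest in 3 of the 4 fibroblast types, and RPE cells, which lead for Ptgds, were at the low end. In Fibroblast cells it was at 1953, 2169 and 2368 CPM in the wt/wt samples and 2670, 1994 and 1948 CPM in the ko/ko samples, a mean of 2184 CPM. Fibroblast 2 and Fibroblast proliferating cells followed at 1941 and 1683 CPM, then Myeloid at 1362 and Endothelial cells at 1033 CPM. Fibroblast markers summed to 1676 to 4494 CPM in Myeloid and 667 to 1933 CPM in Endothelial cells, against 4227 to 5365 CPM in Fibroblast cells, and their part in the levels of all 4 fibroblast-high genes in these types was not tested. In the Pericyte cluster, whose cell type was not checked, these markers summed to 4576 to 6875 CPM. It was next to lowest for Ptgs2 and lowest for Ptges and Ptgis, and the part of the markers was not tested there either. Each of the neighbours from Fibroblast to Endothelial cells overlapped in range, though Fibroblast 2 exceeded Fibroblast proliferating cells within 6 of 6 samples. A gap then separated Endothelial from Fibroblast-like cells at 435 CPM, with no overlap. Pericyte and RPE cells were last at 227 and 223 CPM. At 4000 UMIs a cell, 97.7% of Fibroblast cells (exact 95% interval 97.4 to 98%) and 40.8% of RPE cells (38.3 to 43.4%) held a Ptgs2 UMI. These intervals cover counting error over pooled cells and not the spread between samples. By sample the RPE share was 31.5, 53.9 and 31.5% in wt/wt and 12.3, 31 and 36.9% in ko/ko. The Fibroblast share was 96.7 to 98.4%.

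Ptgs1, the other cyclooxygenase, was highest by cell type in Fibroblast proliferating cells. Fibroblast proliferating cells had 232, 263 and 267 CPM in the wt/wt samples and 302, 249 and 297 CPM in the ko/ko samples, a mean of 268 CPM. Fibroblast cells were 1.51 times lower at 178 CPM, with no overlap of the ranges and the same order in 6 of 6 samples. Fibroblast 2 cells, which had nearly as much Ptgs2 as Fibroblast cells, had only 56.4 CPM of Ptgs1. Myeloid cells averaged 124 CPM with a wide range, 81.3 to 222 CPM in 4 samples, and Pericyte and RPE cells were lowest at 25.5 and 25 CPM with overlapping ranges. The Pericyte mean was 14.1 CPM without wt/wt replicate 2, and the lowest RPE value was 7.37 CPM in ko/ko replicate 1.

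Ptges, the prostaglandin E2 synthase, was level across 3 of the 4 fibroblast types. Fibroblast proliferating, Fibroblast and Fibroblast 2 cells averaged 104, 100 and 98 CPM, and these neighbours did not differ beyond their spread. Fibroblast cells were the most even, at 97.7, 98.2 and 98.6 CPM in the wt/wt samples and 108, 100 and 99 CPM in the ko/ko samples. Myeloid cells had 65.9 CPM, Fibroblast-like cells 44.8 CPM and RPE cells 38.4 CPM, and Endothelial and Pericyte cells were lowest at 16.1 and 11.8 CPM.

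Ptgis, the prostacyclin synthase, was highest in Fibroblast proliferating cells at 75.8 CPM, with 62.5 CPM in Fibroblast cells. The ranges of these types overlapped, but the order was the same within 6 of 6 samples. Endothelial cells, the textbook site of prostacyclin synthesis, had 41.3 CPM, from 26.4 to 58.6 CPM, which overlapped Myeloid, Fibroblast-like and RPE cells (42.2, 33.9 and 31.4 CPM). Fibroblast 2 cells stood lower at 19.8 CPM with little spread, 18.1 to 23.3 CPM. In RPE cells Ptgis was at 34.3, 25.5 and 39.8 CPM in the wt/wt samples and 24.9, 52 and 11.7 CPM in the ko/ko samples.

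Fibroblast transcripts were also counted in RPE cells. Set against the Fibroblast level of the same sample, the sum of 6 fibroblast markers in RPE cells was at 12.4% (median, range 6.4 to 22.9%). Ptgs2 stood at 11.3% (3.31 to 14.8%), above the marker sum in 1 of 6 samples. Ptgs1 was at 14.7% (3.44 to 21.6%), above it in 3 of 6. Ptges reached 40.9% (21.3 to 51.2%) and Ptgis 48% (21.4 to 75.7%), both above the marker sum in 6 of 6 samples. The RPE levels of Ptgs1 and Ptgs2 were thus of the size of the fibroblast marker signal in these cells, and those of Ptges and Ptgis were larger. What part of them came from fibroblast RNA was not tested.

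The authors divided 23256 fibroblasts further into 9 sub-clusters, which were numbered and not named. Sub-cluster 4 (1558 cells, 99% of them of the type Fibroblast) stood out for Ptges. It had 172, 162 and 177 CPM in the wt/wt samples and 206, 185 and 166 CPM in the ko/ko samples, above every value of the other 8 sub-clusters. The next, sub-cluster 6, averaged 125 CPM. Sub-cluster 4 had no such lead for the other genes, with 246 CPM of Ptgs1, 1850 CPM of Ptgs2 and 63.9 CPM of Ptgis.

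Sub-cluster 6 was highest for both cyclooxygenases. Its Ptgs2 level was 3357, 3117 and 3490 CPM in the wt/wt samples and 3553, 2801 and 2873 CPM in the ko/ko samples, with no overlap with sub-cluster 1 at 2216 CPM. Its Ptgs1 level was 334 CPM, which overlapped sub-clusters 7 and 2 at 277 and 268 CPM. The proliferation genes Mki67 and Top2a summed to 187, 13.4 and 500 CPM in sub-clusters 6, 7 and 2, so high Ptgs1 was not limited to cycling fibroblasts. These 477 cells were shallow, with a median of 4766 UMIs against 27032 in sub-cluster 1, and Fibroblast, the most frequent type among them, made up 40.5%.

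In sub-cluster 7 Ptgs1 parted from the other 3 genes. These 214 cells had the highest sum of fibroblast markers, 15976 CPM against 4425 CPM in sub-cluster 1. They kept a Ptgs1 level of 216 to 389 CPM in all samples, but Ptgs2 was at 397 to 995 CPM, Ptges at 21.1 to 45.3 CPM and Ptgis at 0 to 8.68 CPM. The Ptgis values rest on 0 to 5 UMIs a sample. Sub-cluster 3, mostly Fibroblast 2 cells (78.2%), showed the pattern of that type, with Ptgs2 at 2083 CPM, Ptges at 99.2 CPM, and Ptgs1 and Ptgis at only 96.1 and 20 CPM. Sub-cluster 5, mostly Fibroblast-like cells, was low in Ptgs2 at 319 CPM and Ptgs1 at 60.7 CPM. Sub-cluster 8 was the lowest for these 4 genes, but it rests on 4 samples and a median of 3150 UMIs a cell, with fibroblast markers at 312 CPM. Ptgds was at most 18 CPM in any sub-cluster of a sample, from 2 UMIs.

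**Figure D3:**
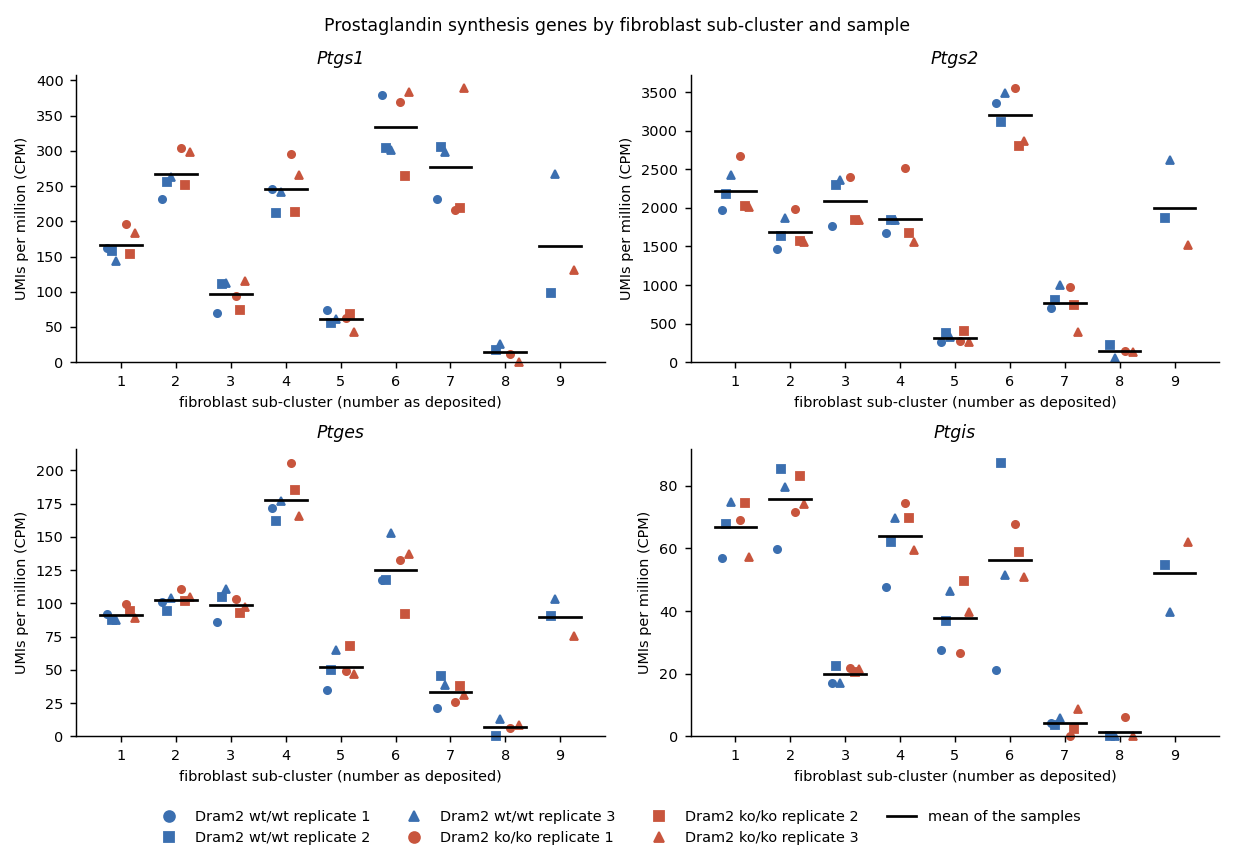
Levels of Ptgs1, Ptgs2, Ptges and Ptgis in CPM in the 9 fibroblast sub-clusters, 1 point per sample with at least 10 cells and the mean as a bar. Sub-cluster 4 leads for Ptges (162 to 206 CPM), sub-cluster 6 for Ptgs2 (2801 to 3553 CPM), and sub-cluster 7 keeps Ptgs1 but is near 0 for Ptgis.

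For each synthesis gene the protein-coding genes with the most similar pattern were looked up by the Pearson correlation of log2(CPM + 1) over 46 sums of a sample and cell type, among 10443 genes. Sums of 1 sample share a library, so these values only describe likeness. Ptgds was closest to Rgr, an opsin of the RPE (r = 0.964), Ermn (0.954) and the eye field factor Lhx2 (0.951). Ptgs2 was closest to the transcription factor Foxc1 (0.957). Ptgs1 was closest to the guidance cue Sema3a (0.938), the Wnt regulator Dkk2 (0.908) and the proteoglycan Bgn (0.904). Ptges lay beside the mesenchymal factor Twist1 (0.921), the elastic fibre gene Fbln5 (0.906) and the procollagen processing gene Pcolce (0.896), and Ptgis, with the weakest likeness, beside the cyclin Ccnd2 (0.824), the kinase Grk5 (0.822) and the cytokine Il7 (0.817).

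Genes upstream and downstream of the synthases completed the picture, from a list of 35. Upstream, Pla2g4a, the cytosolic phospholipase A2 that supplies arachidonic acid, was highest in Fibroblast proliferating and Fibroblast cells at 391 and 360 CPM and lowest in RPE cells at 59.7 CPM. Pla2g12a, a secreted phospholipase, was at 125 CPM in Fibroblast 2 cells and 92.4 CPM in RPE cells. Plaa, named for activating phospholipase A2, was nearly even, from 80.5 to 116 CPM. Among other terminal synthases, Hpgds, the blood cell type prostaglandin D synthase, was found in Myeloid cells at 28.4 CPM and at 0.72 CPM or less elsewhere, so the D synthases were divided between cell types, Ptgds in RPE and Hpgds in Myeloid cells. Tbxas1, the thromboxane synthase, was also a Myeloid gene here, at 26.7 CPM against 1.4 CPM in the next type. Fam213b, a prostaglandin F synthase, was highest in Pericyte cells at 118 CPM and was at 82.1 CPM in RPE cells.

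Of the 6 genes for transport and breakdown, Ptgr1 and Abcc4 were highest in RPE cells with no overlap with the next type, and Hpgd had its highest mean there. Ptgr1, which reduces the products of prostaglandin dehydrogenase, was at 610 ± 248 CPM in RPE cells (SD, n = 6) and 93.8 CPM in the next type, 6.51 times lower. Hpgd, the dehydrogenase that starts prostaglandin breakdown, was at 55.5 ± 36.3 CPM in RPE cells, 19.1 CPM in Myeloid cells and at most 1.65 CPM elsewhere, and its RPE range (19.1 to 116 CPM) overlapped the Myeloid range (0 to 34.5 CPM). Abcc4, an exporter of prostaglandins, was at 63.5 ± 23.6 CPM in RPE cells and 16.6 CPM in Endothelial cells. Ptgr2 was at 41.9 CPM in RPE cells and 39.2 CPM in the next type. In Fibroblast proliferating cells it was at 25 CPM in wt/wt and 25.5 CPM in ko/ko. Slco2a1, a prostaglandin transporter, was highest in Endothelial cells at 42 CPM and Zadh2 in Fibroblast 2 cells at 39.9 CPM. Receptors were sparse. Ptger2, a receptor of prostaglandin E2, was at 66 CPM in Fibroblast 2 cells, 8.14 times the next type, and the other 8 receptors stayed at or below 6.34 CPM in every type.

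**Figure D4:**
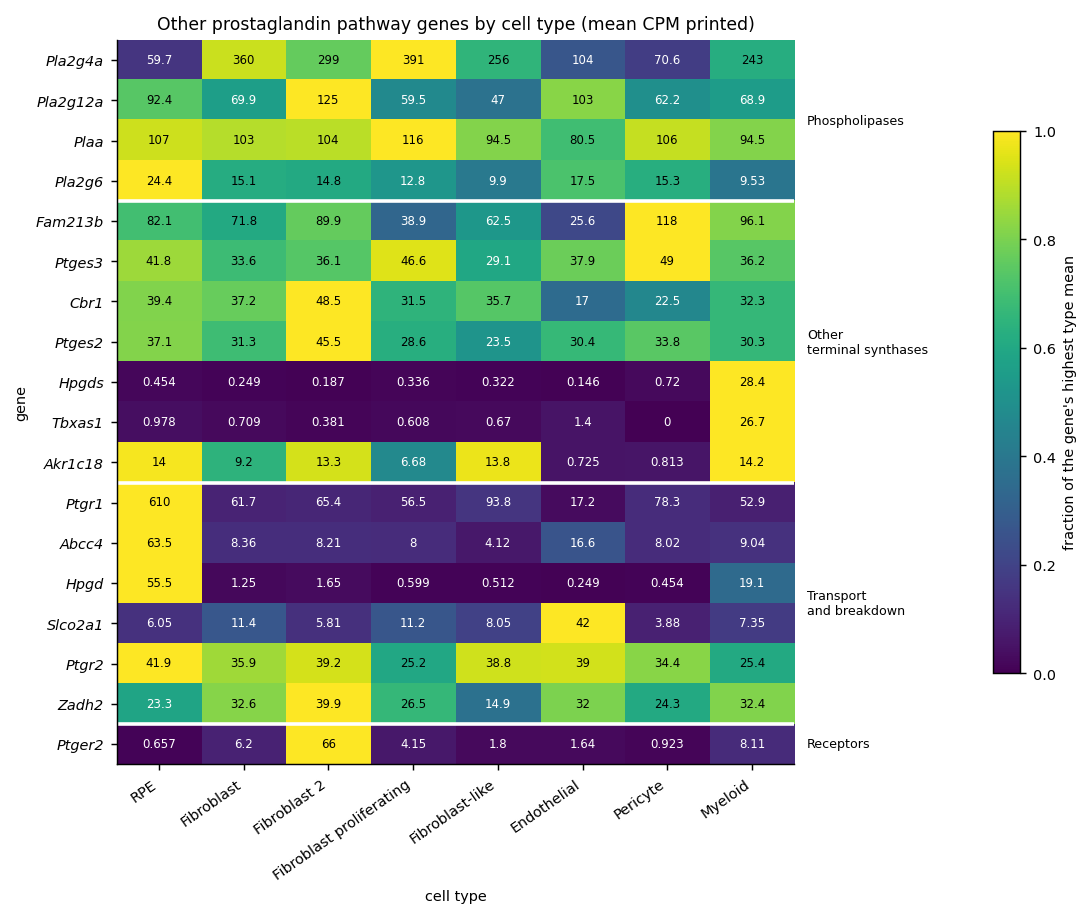
Mean level in CPM (printed in each cell) of the 18 other pathway genes that reached 10 CPM in a cell type, coloured by the fraction of the gene's highest type. RPE cells lead for Ptgr1, Abcc4 and Hpgd, Myeloid cells for Hpgds and Tbxas1, and Fibroblast 2 cells for Ptger2.

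The loss of Dram2, a membrane protein of the lysosome linked to autophagy, was compared with the wild type for each gene, first over all cells of a sample and then within each cell type. No synthesis gene was called, that is, passed an adjusted p of 0.05 in voom-limma (Benjamini-Hochberg over all genes), in any of 9 genotype comparisons. The 5 genes gave 38 tests after the filter on low counts, and 0 of these had an unadjusted p under 0.05, against 6.29% of the tests over all genes. The edgeR quasi-likelihood test and DESeq2 also called 0, with 0 and 1 at an unadjusted p under 0.05. Of all genes tested, the called share was 0% over whole samples, 0% in RPE, 0.00503% in Fibroblast, 0.222% in Fibroblast 2 and 0.624% in Fibroblast proliferating cells. It was 0% in Fibroblast-like and Endothelial, 0.0118% in Pericyte and 0.0296% in Myeloid cells. These counts over all genes turned on single samples. Without ko/ko replicate 1 voom-limma called 242 genes over whole samples and 234 in Fibroblast cells, without ko/ko replicate 3 it called 117 and 150, while the counts of 33 in Fibroblast 2 and 113 in Fibroblast proliferating cells were 0 without wt/wt replicate 3 or ko/ko replicate 2. The former was also 0 without wt/wt replicate 1 and 1 without wt/wt replicate 2, and the latter 0 without wt/wt replicate 2. Without ko/ko replicate 1 they were 121 and 290. The count of synthesis genes was 0 in each of these fits. Over whole samples 1583 of 22580 genes had an unadjusted p under 0.05.

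Over whole samples the genotype means were close. Ptgds was at 12.7, 28.3 and 19.1 CPM in the wt/wt samples and 20.1, 17.4 and 23.2 CPM in the ko/ko samples, which gave a log2 difference of 0.10 (SE 0.248) and an adjusted p of 0.969. The 95% interval of the Ptgds change, -0.47 to 0.66, is wide. RPE cells, 56 to 575 per sample, held 93.7 to 98.7% of its UMIs. The whole-sample level of Ptgds thus mixes the share of RPE cells with the level in them. Ptgs2 was at 1708, 1798 and 2116 CPM against 2265, 1766 and 1543 CPM, a log2 fold change of -0.01 with an interval of -0.34 to 0.33. Ptgs1 (0.12), Ptges (0.04) and Ptgis (-0.05) had intervals of -0.07 to 0.31, -0.17 to 0.25 and -0.39 to 0.30.

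In RPE cells the intervals were much wider. Ptgds averaged 489 ± 227 CPM in wt/wt and 570 ± 377 CPM in ko/ko (SD, n = 3 each), a log2 difference of 0.04 with an SE of 0.692 and an adjusted p of 1. Its 95% interval of -1.58 to 1.66 leaves changes of either sign. The sign itself rested on single samples, with -0.37 without wt/wt replicate 2, -0.26 without ko/ko replicate 1, -0.49 without ko/ko replicate 2 and 0.79 without ko/ko replicate 3. The last of these is also the value within batch 1, since batch 2 is that 1 sample. Ptgs2 averaged 263 ± 50.2 against 184 ± 84.3 CPM (log2 fold change -0.61, interval -1.46 to 0.23). Ptgs1 averaged 30 ± 7.94 against 20 ± 11 CPM (-0.64, -1.61 to 0.33), Ptges 43.5 ± 6 against 33.3 ± 10.8 CPM (-0.58, -1.27 to 0.11) and Ptgis 33.2 ± 7.22 against 29.5 ± 20.5 CPM (-0.69, -1.86 to 0.49). Adjusted p was 1 for all 4 genes. Fibroblast markers in the same RPE cells summed to 662, 1166 and 561 CPM in wt/wt and 344, 572 and 520 CPM in ko/ko, and their part in these values was not tested. Within batch 1, without ko/ko replicate 3, the log2 fold changes of Ptgs2, Ptgs1, Ptges and Ptgis were -0.87, -1.20, -0.09 and 0.21. The Ptgis value changed its sign, that of Ptges shrank, and those of Ptgs2 and Ptgs1 grew in size. In that voom-limma fit 2 of 5 synthesis genes had an unadjusted p under 0.05, as did 992 of all 11923 genes tested, and 0 genes were called.

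In Fibroblast cells the intervals of 4 genes were narrow. Ptges was higher in all 3 ko/ko samples (108, 100 and 99 CPM) than in all 3 wt/wt samples (97.7, 98.2 and 98.6 CPM), but the log2 fold change was 0.06 (interval -0.10 to 0.22, adjusted p = 0.935). Of all genes tested there, 11.6% had groups that did not overlap. Ptgs2 had a log2 fold change of 0.02 (-0.28 to 0.32), Ptgs1 of 0.21 (-0.05 to 0.46) and Ptgis of 0.01 (-0.29 to 0.31). Ptgds, at under 2 CPM in every Fibroblast sum, had a wide interval, -2.70 to 0.85 around -0.92. That value was -0.19 without wt/wt replicate 2 and -1.68 without wt/wt replicate 1. In Myeloid cells, tested with 2 samples against 2, Ptgs2 was at 1726 and 1420 CPM in wt/wt and 1355 and 948 CPM in ko/ko (log2 fold change -0.45, adjusted p = 0.844). Ptges was at 94.7 and 64.1 against 56.7 and 48.1 CPM (-0.61, adjusted p = 0.851). These groups did not overlap, as for 33.7% of all genes tested in Myeloid cells. The fibroblast marker sum of these samples was 4494 and 1676 CPM in wt/wt and 3970 and 2262 CPM in ko/ko, and its part in these values was not tested. The largest of the 38 fold changes in size were those of Ptgs1 and Ptgs2 in Pericyte cells, -1.42 (-3.72 to 0.88) and -1.27 (-2.89 to 0.35), in a type of 17 to 124 cells a sample where ko/ko replicate 1 held 0 UMIs of Ptgs1 and 7 of Ptgs2. Under alternatives they ran from -3.16 to -0.10 and from -2.50 to -0.46, largest in size without ko/ko replicate 2 and smallest without ko/ko replicate 1.

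**Figure D5:**
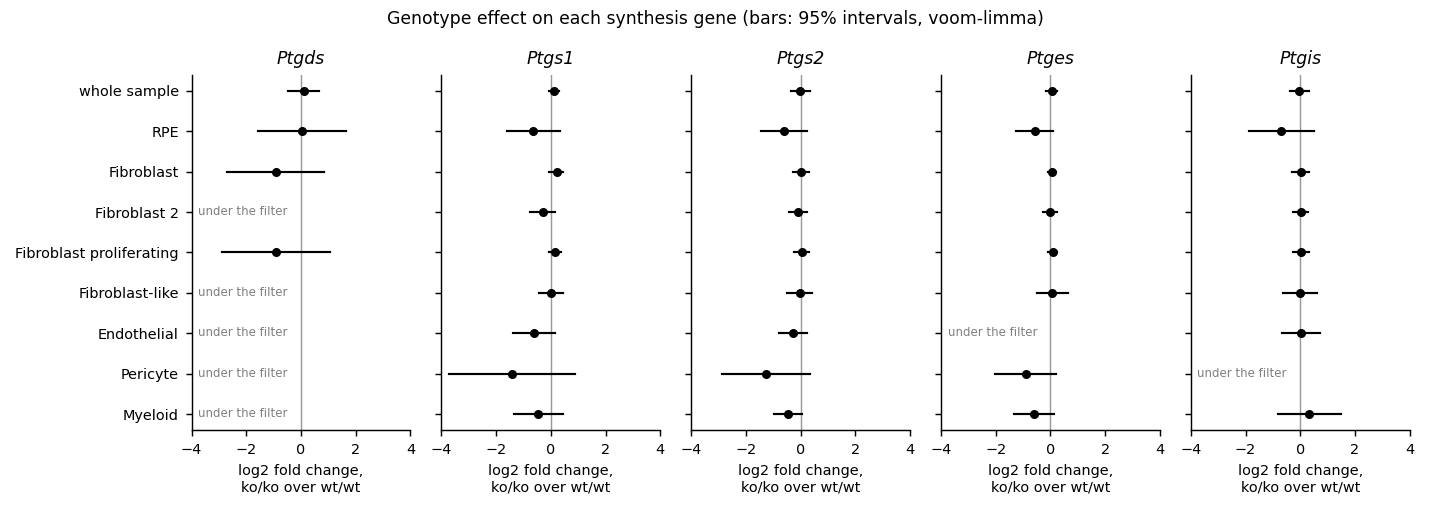
Log2 fold change of each synthesis gene in Dram2 ko/ko over Dram2 wt/wt, over whole samples and in each cell type, as a point with its 95% interval from voom-limma. Every interval includes 0. Those of Ptgs1, Ptgs2, Ptges and Ptgis are narrower in Fibroblast than in RPE cells, while that of Ptgds is wide in both (-2.70 to 0.85 and -1.58 to 1.66).

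Whether the genotype effect differed between RPE and Fibroblast cells was tested with an interaction term. No synthesis gene was called, and neither was any other gene (0% of 19951 tested, 371 of them at an unadjusted p under 0.05). Ptges had the smallest p of the 5 genes, with a difference of -0.64 on the log2 scale (interval -1.20 to -0.09), an unadjusted p of 0.0285 and an adjusted p of 1 in voom-limma. The difference ran from -0.80 to -0.19 under 13 alternatives and was smallest in size without ko/ko replicate 3. The difference for Ptgds was 1.40 with an interval of -1.49 to 4.29, which leaves little said, since Fibroblast cells carried only 11 to 118 Ptgds UMIs a sample.

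Of the 35 other pathway genes, 9 to 28 passed the filter on low counts in a genotype comparison, and voom-limma called 0 of them in each. Of their 160 tests, 10 (6.25%) had an unadjusted p under 0.05, against 6.29% of the tests over all genes. Over whole samples their median log2 fold change was 0.042, against 0.005 for all genes tested, and in RPE cells it was -0.120 against 0.006. Neither value was stable. The whole-sample median was 0.006 without wt/wt replicate 1 and 0.091 without wt/wt replicate 2. The RPE median was 0.27 without ko/ko replicate 3, with 13 of 16 genes higher in ko/ko, 0.272 with the batch as a term, 0.011 without wt/wt replicate 1 and 0.011 in DESeq2. DESeq2 called 1, Akr1c18, an aldo-keto reductase, in Fibroblast 2 cells, where it called 1.13% of 14882 genes. Akr1c18 was at 8.61 ± 3.36 CPM in wt/wt and 18.1 ± 3.1 CPM in ko/ko (SD, n = 3 each). Its log2 fold change in voom-limma was 1.08 (interval 0.49 to 1.67), higher in 3 of 3 ko/ko samples than in any wt/wt sample, with an adjusted p of 0.234. The groups did not overlap for 11.4% of all genes tested there. Akr1b3, another aldo-keto reductase, gave 4 of the 10 tests with an unadjusted p under 0.05. It was lower in 3 of 3 ko/ko samples than in any wt/wt sample over whole samples (log2 fold change -0.94) and in Fibroblast (-0.96), Fibroblast 2 (-0.82) and Fibroblast proliferating cells (-1.21, adjusted p = 0.103 in voom-limma), at levels under 2 CPM. The groups did not overlap for 11.5, 11.6, 11.4 and 11.3% of all genes in these comparisons. Of its 31-base words at the 3′ end 48.7% occur in other genes, so its counts are uncertain. The rest of the 10 tests with an unadjusted p under 0.05 were higher in ko/ko. They were Akr1c18 above, Ptger2 over whole samples (log2 fold change 0.32) and in Fibroblast cells (0.31), and Ptgir in Fibroblast cells (0.52). Ptges2 (0.56) and Ptgr1 (0.59) in Pericyte cells completed them. Adjusted p was 0.643 to 0.806 in voom-limma for Ptger2, Ptgir, Ptges2 and Ptgr1.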

How the data were processed

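Single-cell RNA was measured in 6 samples with the 10x Genomics 3′ kit. The authors deposited UMI counts per gene and cell, made with Cell Ranger 3.1.0 on GRCm38 per the submitters' processing notes, from exons only and not normalised. Which annotation release and which cell filters were used is not given in the sources used here. Cell types and sub-clusters are those the authors deposited, from Seurat clusters of data integrated across batches. The members and gene lists were chosen with earlier results of these data known.

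All deposited cells were used. Counts were summed per sample and per cell type or sub-cluster of a sample with 10 or more cells. Myeloid cells of wt/wt replicate 1 and ko/ko replicate 1 fell below this. Levels are CPM, the count per 1000000 UMIs of the sum, and are compared between cell types or samples and not between genes. After filterByExpr and TMM scaling (edgeR 4.0.16), genotypes were compared two-sided by voom-limma, the method the study names, with genotype as the only term (limma 3.58.1 in R 4.3.3). P-values were adjusted by Benjamini-Hochberg over all genes of a comparison, and the code was tested on simulated data. Intervals for log2 fold changes are 95% intervals of that fit. Shares of cells were taken after thinning to 4000 UMIs, with exact Clopper-Pearson intervals. Scrublet (scanpy 1.11.5) marked 7 cells as doublets (0.0275%), which is too low a share to be relied on, and none was removed.

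Alternatives were the edgeR quasi-likelihood test, DESeq2 1.42.0, RLE or library size scaling, no filter on low counts, batch or replicate number as a term, a filter on cells (500 genes, 20% mitochondrial counts), leaving out the 5% highest doublet scores, a minimum of 20 cells, no thinning or 8000 UMIs, and each sample left out. Other pathway genes were named when called or when their highest type mean was 50 CPM or more. They were also named when that mean was at least 10 CPM and over 5 times the next. Akr1c18, Akr1b3, Ptgr2, Slco2a1, Zadh2, Ptges2 and Ptgir were named after their values were seen. The genes of most similar pattern were the 3 with the highest correlation for each synthesis gene, and some of them are not reported here.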

Additional observations from a re-analysis of the deposited data

Results flagged for a closer look

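The samples of Ptges were ordered by genotype in opposite ways in Fibroblast and Myeloid cells. In Fibroblast cells all 3 ko/ko samples lay above all 3 wt/wt samples, with a log2 fold change of 0.06, and in Myeloid cells both ko/ko samples lay below both wt/wt samples, with a log2 fold change of -0.61. The difference between these cell types was not tested, neither value passed its own test, and 11.6% of all genes in Fibroblast and 33.7% in Myeloid cells had groups that did not overlap. The Myeloid sums rest on 10 to 56 Ptges UMIs a sample.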

How the results depend on the processing

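No synthesis gene was called in any of 153 alternative fits, and of 653 fold changes of these genes under alternatives 66 had the opposite sign of the main value, 0 of them called. Over whole samples the batch term gave log2 fold changes of -0.00053 for Ptgds, 0.057 for Ptgis and 0.13 for Ptgs2, and Ptgs2 was at 0.002 in edgeR, 0.0097 in DESeq2 and 0.00054 with RLE. In RPE cells Ptgds was at -0.0065 with library size alone and -0.24 with no filter, and Ptgis at 0.21 with the batch term. With no filter Ptgis and Ptgs2 were at -0.0055 and -0.0013 in Fibroblast cells, and in Myeloid cells Ptgis was at -0.026 in DESeq2. Leaving out 1 sample in turn gave whole-sample ranges of -0.18 to 0.36 for Ptgds, -0.18 to 0.058 for Ptgis, -0.16 to 0.13 for Ptgs2 and -0.022 to 0.12 for Ptges. The ranges were -0.49 to 0.79 for Ptgds and -1.14 to 0.21 for Ptgis in RPE cells, -0.097 to 0.12 for Ptgis and -0.10 to 0.11 for Ptgs2 in Fibroblast cells, -0.64 to 1.07 for Ptgis and -1.12 to 0.28 for Ptgs1 in Myeloid cells, and -0.89 to 0.23 for the RPE against Fibroblast difference of Ptgis. Myeloid fits with 1 sample left out leave 1 sample in a genotype, so the absence of calls in them carries no weight. The cause of these changes was not tested.

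Deviations of same-numbered samples from their genotype means correlated at 0.0987, -0.429 and 0.028. Cell type make-up enters these values and each mean rests on 3 samples, so they cannot show whether the numbers pair the samples. With the replicate block 0 synthesis genes were called, 6 of 38 tests (15.8%) had an unadjusted p under 0.05 against 5.28% over all genes, and Ptgis in Myeloid cells was at -0.31. DESeq2 called 11 to 381 genes of any kind per comparison, voom-limma 0 to 113 and the block 0 to 32. The batch term called 118 genes over whole samples against 0, and leaving out ko/ko replicate 1 called up to 290, in Fibroblast proliferating cells. Of other pathway genes, DESeq2 alone called 1, in Fibroblast 2 cells.

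The cell filter moved sub-cluster 6 to 394 CPM of Ptgs1 and 4001 CPM of Ptgs2. Shares of cells rise with depth by construction. At 8000 UMIs the highest type had 46.1% for Ptgds, 71.4% for Ptgs1, 99.2% for Ptgs2, 50.9% for Ptges and 34.8% for Ptgis, and with no thinning 60.3, 87.5, 99.6, 74.9 and 51.5%. Leaving out 1 sample moved the Ptgds share between 34.3 and 44.7%. Few UMIs limit Ptgds in Myeloid, Endothelial and Pericyte cells (1 to 13 in all) and Ptgs1 in Pericyte cells.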
